A study of Mus musculus with 4 samples.

Results

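The genes described here are the potassium channel genes of the mouse other than the Kcnc and Kcnq families, measured in single nuclei of the deep cerebellar nuclei, the output stations of the cerebellum. They were chosen by name: every row of the deposited tables whose symbol starts with Kcn, except rows starting with Kcnc or Kcnq, with a count in each of the 4 libraries. Of the 15632 rows, 58 had such a symbol and 44 of these were counted in all 4 libraries. The other 14 rows (Kcna5, Kcnd1, Kcne1l, Kcnh6, Kcnip2, Kcnj2, Kcnj11, Kcnj13, Kcnk4, Kcnk5, Kcnk6, Kcnmb1, Kcnmb4os2 and Kcnn1) were listed at 0 in at least 1 library and are not described further.

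Nuclei came from micro-dissected tissue of C57BL/6J mice and were captured on the 10x platform, and the labels record no sorting. The Ucn3-Cre libraries (Tg[Ucn3-cre]KF31Gsat/Mmucd) were made from female tissue at 3 months, with nuclei purified on an iodixanol gradient (replicate 1), and from male tissue at 3 months, purified on a sucrose cushion (replicate 2). The vGluT2-Cre libraries (Tg(Slc17a6-icre)1Oki) were made from male tissue at 2 months (replicate 1) and female tissue at 2.5 months (replicate 2), both purified on a sucrose cushion. All mice carried Ai32, which makes a channelrhodopsin fused to EYFP in cells with Cre, so no library lacks the reporter or a Cre transgene. Wherever 4 values are given for a class, they are in the order Ucn3-Cre replicates 1 and 2, vGluT2-Cre replicates 1 and 2. The labels do not say whether replicates were single animals, so p-values measure the spread between these 4 libraries only.

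Potassium channels let potassium leave the cell and thereby set the resting potential, end action potentials and space them in time. Voltage-gated families (Kv, and the related eag, erg and elk channels) open on depolarization, calcium- and sodium-activated channels couple firing to the ion load, inward rectifiers (Kir) and tandem-pore channels carry current near rest, and auxiliary subunits tune gating and placement. In the deep cerebellar nuclei such channels shape spontaneous firing and rebound bursts, and in astrocytes and oligodendrocytes Kir channels are known for clearing potassium from around active axons.

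The 4 libraries held 4144, 6240, 5387 and 4776 nuclei after removal of likely doublets, with medians of 1730, 1999, 2336 and 3206 counts per nucleus, and 41 cell barcodes occurred in more than 1 library. The 44 genes took 0.439 to 0.566% of all counts of a library. Clustering without any Kcn gene gave 19 clusters, 18 of which were named from marker genes, while cluster 1 (492 nuclei, led by 9630013A20Rik and Synpr) stayed unnamed. The named classes were glutamatergic neurons (547 nuclei), inhibitory neurons (1097), molecular layer interneurons (243), oligodendrocyte precursors (694), oligodendrocytes (10686), astrocytes (5027), microglia (763), endothelial cells (740), mural cells (179) and fibroblasts (79). Depth followed class, with medians of 9556 counts per glutamatergic nucleus, 5267 per inhibitory nucleus and 1417 to 2677 in the other classes. The markers set glutamatergic and inhibitory neurons apart from each other: 6 glutamatergic markers summed to 413 to 1000 CPM (counts scaled to the same class total in every library) in glutamatergic neurons and 115 to 252 CPM in inhibitory neurons, and 7 inhibitory markers to 189 to 358 CPM and 982 to 1230 CPM. In molecular layer interneurons these sums were 168 to 590 CPM and 756 to 1126 CPM, so each overlapped the class it is meant to mark. The 6 glutamatergic markers also summed to 464 to 638 CPM in endothelial cells and 872 to 1727 CPM in fibroblasts, so their sum does not mark the class against these. Their ranges in mural cells (264 to 810 CPM), microglia (217 to 714 CPM) and oligodendrocytes (148 to 575 CPM) overlapped that of glutamatergic neurons as well. The upper ends in precursors (427 CPM) and astrocytes (418 CPM) just reached it. Fibroblasts had fewer than 20 nuclei in 2 libraries and enter no test. Because classes were drawn from the counts of the same nuclei, p-values between classes are too small, although the potassium channel genes took no part in drawing them.

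By their summed level, transcripts of the 44 genes were most abundant in neurons and oligodendrocyte precursors and scarcest in oligodendrocytes. Summed over the 44 genes, the level was 13440, 13450, 14690 and 12430 CPM in glutamatergic neurons, and 8902, 7449, 9329 and 7896 CPM in inhibitory neurons, so no library overlapped. Oligodendrocyte precursors followed with 9118 ± 264 CPM (SD, n = 4 libraries, as for all means below) and molecular layer interneurons with 8008 ± 910 CPM. Astrocytes held 5695 ± 338 CPM, mural cells 2041 ± 218 CPM, endothelial cells 1873 ± 497 CPM, microglia 1713 ± 187 CPM and oligodendrocytes 1574 ± 176 CPM. Kcnip4 alone, an auxiliary subunit and not a channel pore, had a mean of 7624 CPM in glutamatergic and 1744 CPM in inhibitory neurons. Its mean was 2787 CPM in molecular layer interneurons and 119 CPM in precursors. The place of glutamatergic neurons above inhibitory neurons and precursors in these sums rests on this gene. At a mean of at least 10 CPM, 34 of the 44 genes were present in glutamatergic neurons, 33 in oligodendrocyte precursors, 32 in inhibitory neurons and 13 in oligodendrocytes.

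**Figure D1:**
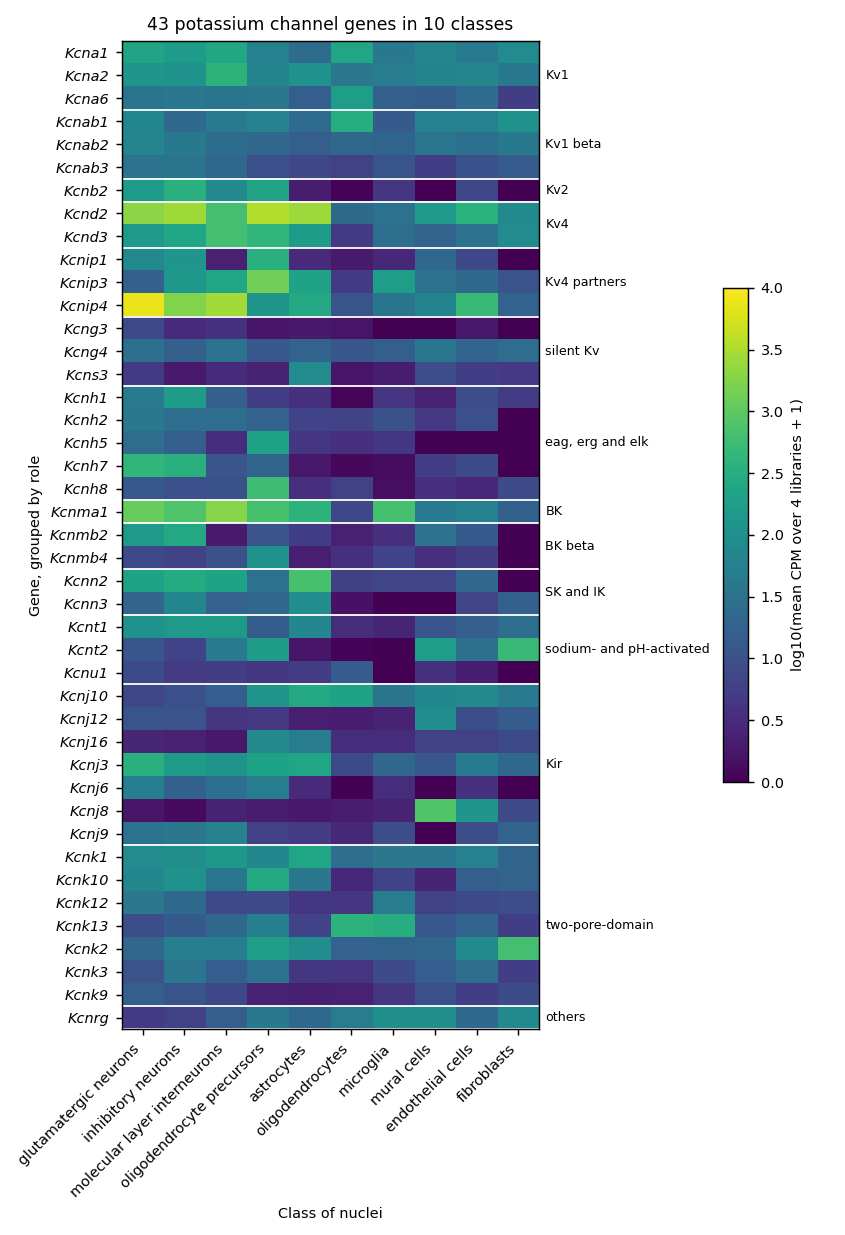
Mean level of 43 of the 44 potassium channel genes (rows, grouped by role) in the 10 classes (columns), as log10(CPM + 1) averaged over 4 libraries. Rows change from class to class: Kcnh8 and Kcnip3 are strongest in oligodendrocyte precursors, Kcnn2 in astrocytes, Kcnk13 in oligodendrocytes and microglia, and Kcnj8 in mural cells.

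Each gene was assigned to the class of its highest mean among the 9 classes with at least 20 nuclei per library. Oligodendrocyte precursors were the highest class for 10 genes, glutamatergic neurons for 8, molecular layer interneurons for 6, inhibitory neurons and astrocytes for 5 each, oligodendrocytes and mural cells for 4 each and microglia for 2. In 28 of the 44 genes the lowest library of the highest class lay above the highest library of the second class. Over all 11446 genes with a count in each library, that share was 35.2%. Endothelial cells were the highest class of none. Levels are compared below between classes for one gene at a time, since CPM of different genes also depend on transcript length and capture.

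Among the Kv1 subunits, which open at low voltage and sit on axons, Kcna2 was highest in molecular layer interneurons. Its levels there were 269, 347, 491 and 428 CPM, against a mean of 119 CPM in glutamatergic neurons, the second class, and no library overlapped. Kcna1 had 242 ± 29.8 CPM in molecular layer interneurons, 233 ± 49.7 CPM in oligodendrocytes and 216 ± 84.4 CPM in glutamatergic neurons, an order that lies within the spread of the libraries. Kcna6 was an oligodendrocyte gene in these data, with 153, 166, 171 and 183 CPM there and 37.9 CPM in precursors, the next class. Kcnab1, a cytoplasmic beta subunit of Kv1 channels, was also highest in oligodendrocytes (420, 445, 195 and 200 CPM) and next in glutamatergic neurons (66.3 ± 12.2 CPM). Kcnab2 was highest in glutamatergic neurons (65.1 ± 5.41 CPM, against 40.6 ± 7.19 CPM in inhibitory neurons). Kcnab3 was near 33 CPM in both neuron classes, with 32.4 CPM in glutamatergic and 33.4 CPM in inhibitory neurons.

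Kcnb2, a Kv2 subunit and thus a slow delayed rectifier of the soma, was highest in inhibitory neurons (356, 310, 373 and 343 CPM) and next in oligodendrocyte precursors (214 ± 23.9 CPM). The silent subunits Kcng3, Kcng4 and Kcns3 form no channel alone and modify Kv2. Kcns3 was an astrocyte gene, at 67.7, 95.1, 90.5 and 82.8 CPM, while its mean in every other class was at most 7.73 CPM. Kcng4 stayed between 10.7 and 35.6 CPM in all classes, and the mean of Kcng3 did not exceed 6.76 CPM in any.

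Kv4 subunits carry the fast A-type current. Kcnd2 was high in 4 classes that neighbour each other in rank: oligodendrocyte precursors (3531, 3096, 3814 and 3277 CPM), inhibitory neurons (2686 ± 412 CPM), astrocytes (2578 ± 280 CPM) and glutamatergic neurons (1990 ± 369 CPM). Each of these overlapped the next in at least 1 library, whereas oligodendrocytes held only 22.8 ± 13.4 CPM. Kcnd3 was highest in molecular layer interneurons (794, 771, 486 and 456 CPM) and next in precursors (427 ± 29.6 CPM). The calcium-binding partners of Kv4 differed widely in class. Kcnip4 led in glutamatergic neurons at 7573, 8060, 7944 and 6918 CPM, against 2787 ± 722 CPM in molecular layer interneurons. Kcnip3 led in oligodendrocyte precursors at 1226, 1469, 1238 and 1415 CPM, against a mean of 232 CPM in molecular layer interneurons, and Kcnip1 in the same class at 344 ± 75.1 CPM, against 122 ± 23.7 CPM in inhibitory neurons. Kcnip1 shares a strand with the overlapping gene 4930469K13Rik, so counts of the pair could be split either way.

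The eag, erg and elk channels fell into neuronal and precursor genes. Kcnh8, the elk member, had 544, 582, 668 and 516 CPM in oligodendrocyte precursors, and its mean in glutamatergic neurons, the next class, was 11.5 CPM. Kcnh5 (eag) was likewise highest in precursors, at 199 ± 34.7 CPM, with 25.8 ± 10.4 CPM in glutamatergic neurons. Kcnh1 (eag) was highest in inhibitory neurons (162 ± 19.8 CPM, against 45.7 ± 12.1 CPM in glutamatergic neurons). The erg gene Kcnh7 was found mostly in these neurons, at 427 ± 26.8 CPM in glutamatergic and 342 ± 47.6 CPM in inhibitory neurons, and at 18.8 CPM or less elsewhere. Kcnh2, the other erg gene, had 39.3 ± 5.45 CPM in glutamatergic and 26.9 ± 2.87 CPM in inhibitory neurons.

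Kcnma1 forms the large-conductance calcium-activated BK channel and was highest in molecular layer interneurons (1652, 1424, 2320 and 2010 CPM), next in glutamatergic neurons (1174 ± 132 CPM). Its beta subunits parted: Kcnmb2 was highest in inhibitory neurons (256 ± 28.4 CPM, against 145 ± 13.4 CPM in glutamatergic neurons), and Kcnmb4 in oligodendrocyte precursors (109 ± 23.2 CPM, against 8.84 ± 8.37 CPM in molecular layer interneurons). The small-conductance SK genes were highest in astrocytes. Kcnn2 had 731, 592, 645 and 737 CPM in astrocytes and 292 ± 33.5 CPM in inhibitory neurons, and Kcnn3 had 90.8 ± 9.52 and 66.9 ± 7.32 CPM in the same classes, without overlap of libraries in either gene. Of the sodium-activated genes, Kcnt1 had 149 ± 50.7 CPM in molecular layer interneurons and 138 ± 8.59 CPM in inhibitory neurons, which overlapped. Kcnt2 had 168 ± 82.5 CPM in mural cells and 157 ± 22.5 CPM in precursors, and 419, 596, 644 and 416 CPM in the few fibroblasts. Kcnu1, known from sperm, reached 13.5 ± 2.99 CPM in oligodendrocytes.

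Among the inward rectifiers, the G-protein-gated subunits had their highest class means in neurons, although an astrocyte cluster given below held more Kcnj3. Kcnj3 had 356, 310, 378 and 320 CPM in glutamatergic neurons and 226 ± 44.8 CPM in astrocytes, the next class. Kcnj6 had 28.2 to 64.9 CPM in glutamatergic neurons and 20.2 to 81.0 CPM in oligodendrocyte precursors, and Kcnj9 had 59.2 ± 13.8 CPM in molecular layer interneurons and 37.2 ± 3.23 CPM in inhibitory neurons. The glial potassium-clearing subunit Kcnj10 was highest in astrocytes (269, 260, 239 and 270 CPM) and next in oligodendrocytes (203 ± 5.45 CPM), again with no overlap. Its partner Kcnj16 was seen in oligodendrocyte precursors (74.0 ± 19.9 CPM) and astrocytes (48.4 ± 7.51 CPM), and at 3.35 CPM or less in every library of oligodendrocytes. Kcnj8, the pore of the vascular ATP-sensitive channel, had 758, 884, 858 and 814 CPM in mural cells. Kcnj12, a strong rectifier, had 170, 49.3, 61.2 and 76.7 CPM in mural cells and 10.1 ± 4.09 CPM in glutamatergic neurons.

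Tandem-pore channels carry background current. Kcnk13 was shared by oligodendrocytes (440, 343, 360 and 371 CPM) and microglia (396, 315, 314 and 195 CPM), whose libraries overlapped, and its mean was at most 52.6 CPM in any other class. Its relative Kcnk12 had 47.9 ± 13.6 CPM in microglia and 36.9 ± 9.57 CPM in glutamatergic neurons. Kcnk1 was highest in astrocytes (235 ± 34.1 CPM), Kcnk10 in oligodendrocyte precursors (274 ± 28.4 CPM), and the related stretch-sensitive Kcnk2 in precursors (168 ± 21.6 CPM) among the tested classes, with 638 ± 155 CPM in fibroblasts. The acid-sensitive Kcnk3 was highest in inhibitory neurons (35.9 ± 6.01 CPM) and Kcnk9 in glutamatergic neurons (15.5 ± 5.91 CPM). Kcnrg, a cytoplasmic regulator of Kv channels, had 96.2 ± 33.0 CPM in microglia and 92.1 ± 48.0 CPM in mural cells, which overlapped.

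The 250 bases before the annotated start are shown for 5 genes whose highest classes differ: Kcnip4 (glutamatergic neurons), Kcnh8 (oligodendrocyte precursors), Kcnk13 (oligodendrocytes and microglia), Kcnj10 (astrocytes) and Kcnj8 (mural cells). They were read 5′ to 3′ on the gene's strand from RefSeq promoter sequences of GRCm38.p6, and capitals mark matches to GGGCGG on either strand, the GC box.
Kcnip4, downstream start, chr5:48599683-48599932, minus strand: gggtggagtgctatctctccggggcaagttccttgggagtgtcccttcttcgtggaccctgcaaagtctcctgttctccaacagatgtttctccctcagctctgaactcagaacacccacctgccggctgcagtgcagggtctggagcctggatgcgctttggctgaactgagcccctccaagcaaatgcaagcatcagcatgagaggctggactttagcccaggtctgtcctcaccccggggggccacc
Kcnip4, upstream start, chr5:49285660-49285909, minus strand: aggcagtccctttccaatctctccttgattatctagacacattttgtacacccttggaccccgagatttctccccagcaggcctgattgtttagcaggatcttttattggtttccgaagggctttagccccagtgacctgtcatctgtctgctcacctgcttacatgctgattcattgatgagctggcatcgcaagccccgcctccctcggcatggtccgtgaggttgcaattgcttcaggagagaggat
Kcnh8, chr17:52602459-52602708, plus strand: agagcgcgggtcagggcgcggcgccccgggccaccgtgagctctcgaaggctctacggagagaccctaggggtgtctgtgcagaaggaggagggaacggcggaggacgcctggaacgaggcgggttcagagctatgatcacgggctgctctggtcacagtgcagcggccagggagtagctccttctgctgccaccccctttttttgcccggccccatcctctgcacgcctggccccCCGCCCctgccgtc
Kcnk13, chr12:99964249-99964498, plus strand: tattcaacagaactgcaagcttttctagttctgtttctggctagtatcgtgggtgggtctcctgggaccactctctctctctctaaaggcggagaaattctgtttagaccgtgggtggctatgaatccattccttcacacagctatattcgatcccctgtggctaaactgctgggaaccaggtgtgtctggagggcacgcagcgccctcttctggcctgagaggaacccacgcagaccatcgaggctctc
Kcnj10, chr1:172340960-172341209, plus strand: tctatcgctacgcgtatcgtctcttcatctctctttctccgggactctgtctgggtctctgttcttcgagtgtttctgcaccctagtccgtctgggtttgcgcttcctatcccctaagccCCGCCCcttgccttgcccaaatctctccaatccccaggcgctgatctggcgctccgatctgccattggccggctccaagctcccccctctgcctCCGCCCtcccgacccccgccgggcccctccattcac
Kcnj8, chr6:142571615-142571864, minus strand: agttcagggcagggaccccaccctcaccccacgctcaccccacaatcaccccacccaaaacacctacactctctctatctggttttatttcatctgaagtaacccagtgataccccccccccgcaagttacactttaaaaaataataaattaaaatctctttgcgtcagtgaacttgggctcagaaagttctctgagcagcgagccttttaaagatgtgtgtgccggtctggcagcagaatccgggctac

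GGGCGG was present in 32.7% of 32851 promoter windows of that length and in 21 of 53 windows (39.6%) of the 35 potassium channel genes with an entry. TATAAA was present in 12.4% of all windows and in 2 of the 53 (Kcnj9 and Kcnj16), and ACAAAG in 16.5% and in 6 of the 53, with both strands searched each time. Among the genes printed, the windows of Kcnj10 and Kcnh8 held a GC box and those of Kcnip4, Kcnk13 and Kcnj8 none. A match describes these letters only. Genes on the list also neighbour each other: Kcnj9 lies 11.9 kb from Kcnj10 on chromosome 1, and Kcna1 lies 61.9 kb from Kcna6 on chromosome 6. Neighbours need not share a class: Kcnj9 was highest in molecular layer interneurons and Kcnj10 in astrocytes.

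In 1 fit over the 9 classes, each class was set against the mean of the other 8 on the log2 scale, with a call needing a difference above 1 and an adjusted p under 0.05 (edgeR quasi-likelihood test, Benjamini-Hochberg over all genes). Of 42 genes tested, 25 were called higher in glutamatergic neurons, where 19.1% of all genes were, 23 in inhibitory neurons (17.1%), 21 in oligodendrocyte precursors (14.3%), 13 in astrocytes (17.8%) and 12 in molecular layer interneurons (11.4%). Calls were 6 in oligodendrocytes (14.5%), 5 in microglia (15.4%), 4 in mural cells (7.86%) and 3 in endothelial cells (23.4%). The leading gene was Kcnh7 in glutamatergic neurons (log2 fold change 6.70, SE 0.16, adjusted p 3.18e-38), Kcnh8 in precursors (7.28, SE 0.14, adjusted p 3.05e-44) and Kcnk13 in oligodendrocytes (4.38, SE 0.09, adjusted p 1.32e-42). Kcns3 led in astrocytes (5.53, SE 0.20, adjusted p 4.97e-32), Kcnk13 in microglia (3.56, SE 0.16, adjusted p 3.19e-27) and Kcnj8 in mural cells (8.55, SE 0.26, adjusted p 3.82e-34). Oligodendrocyte precursors also held the markers of molecular layer interneurons at a sum of 7335 to 7927 CPM, near that of the interneurons themselves, and the 5 markers common to all neurons at 2097 to 2413 CPM; the part of these in the precursor levels was not tested.

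**Figure D2:**
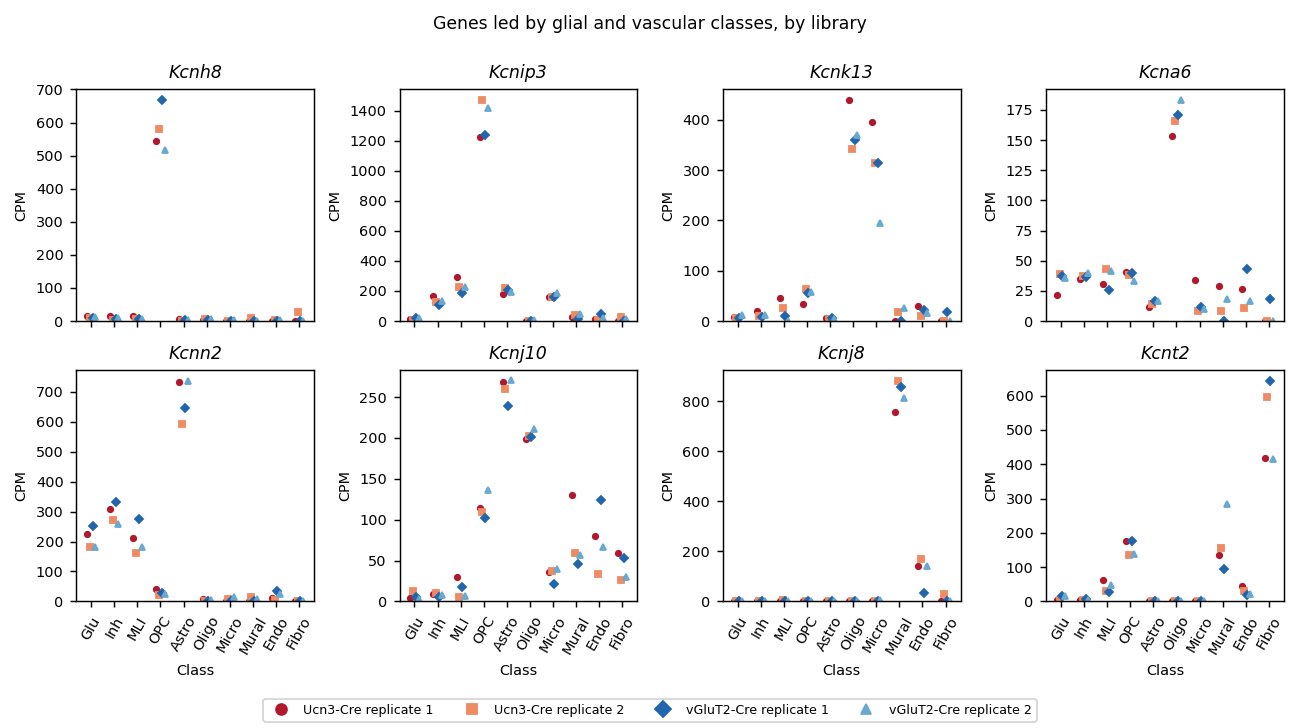
Level in CPM of 8 genes (Kcnh8, Kcnip3, Kcnk13, Kcna6, Kcnn2, Kcnj10, Kcnj8 and Kcnt2) by class, with a point for each of the 4 libraries. Kcnh8 and Kcnip3 stand out in oligodendrocyte precursors, Kcna6 in oligodendrocytes, Kcnn2 in astrocytes and Kcnj8 in mural cells, while Kcnk13 is high in both oligodendrocytes and microglia.

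Glutamatergic and inhibitory neurons of the nuclei differed in the levels of most potassium channel genes tested. With the library as a block, 40 of the 44 genes were tested, and 14 were higher in glutamatergic neurons and 13 lower at an adjusted p under 0.05 (edgeR quasi-likelihood test), where 16.8% and 15.3% of all genes were. The median log2 fold change over the 40 was 0.03, against -0.01 over all genes, so the differences went both ways. Without the sub-clusters led by genes of other classes, 28 genes were called in all, 26 of them shared with the 27 above.

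The Kv4 partners gave the largest differences in both directions. Kcnip4 had 7573, 8060, 7944 and 6918 CPM in glutamatergic neurons, against 2073, 1335, 2073 and 1496 CPM in inhibitory neurons (log2 fold change 2.24, SE 0.08, adjusted p 1.09e-25). Kcnip3 had 16.6, 8.80, 19.0 and 19.8 CPM in glutamatergic neurons, against 165, 129, 108 and 134 CPM in inhibitory neurons (-2.89, SE 0.15, adjusted p 3.88e-20). In both genes all 4 libraries of one class lay beyond all 4 of the other. Kcnip1 was lower as well (75.4 ± 11.8 against 122 ± 23.7 CPM, -0.63, adjusted p 8.66e-06). Their channels Kcnd2 and Kcnd3 were lower in glutamatergic neurons by 0.35 and 0.58 on the log2 scale (adjusted p 3.83e-06 and 1.56e-06), Kcnd2 in 4 of 4 libraries although its ranges overlapped. Dpp10 and Dpp6, membrane partners of Kv4 that are not Kcn genes, moved in opposite directions, Dpp10 at 491 ± 136 CPM in glutamatergic against 77.1 ± 13.7 CPM in inhibitory neurons (2.79, adjusted p 1.08e-25) and Dpp6 at 921 ± 80.9 against 2736 ± 118 CPM (-1.49, adjusted p 2.28e-23).

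The Kv2 gene Kcnb2 was lower in glutamatergic neurons, with 138, 106, 212 and 145 CPM, against 356, 310, 373 and 343 CPM in inhibitory neurons (-1.12, SE 0.09, adjusted p 5.64e-14). No glutamatergic library reached an inhibitory one. The beta subunits Kcnab1 and Kcnab2 went the other way. Kcnab1 had 80.8, 52.7, 60.9 and 70.9 CPM in glutamatergic neurons, against 22.2 ± 7.87 CPM in inhibitory neurons, with 30.1 CPM the highest (1.73, SE 0.16, adjusted p 1.52e-11). Kcnab2 was higher by 0.77 (SE 0.12, adjusted p 2.57e-06), and of the Kv1 pores only Kcna1 passed the test (0.53, adjusted p 4.04e-06), with overlapping ranges.

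Eag and erg channels divided by gene. Kcnh1 had 46.5, 36.9, 36.7 and 62.4 CPM in glutamatergic neurons, against 186, 157, 139 and 167 CPM in inhibitory neurons (-1.74, SE 0.11, adjusted p 6.13e-17), whereas Kcnh2, Kcnh5 and Kcnh7 were higher by 0.63, 0.96 and 0.40 (adjusted p 0.00114, 0.000362 and 3.24e-05). Kcnh5 was higher in 3 of the 4 libraries, and DESeq2 called neither Kcnh2 nor Kcnh5 (adjusted p 0.11 for Kcnh5). The silent subunit Kcng4 was higher by 0.94 (SE 0.20, adjusted p 0.000157), with overlapping ranges.

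Calcium-activated channels also split. Kcnma1 was higher in glutamatergic neurons (1132, 1099, 1371 and 1096 CPM, against 820, 702, 874 and 733 CPM in inhibitory neurons, a log2 difference of 0.67, SE 0.06, adjusted p 7.63e-12), and the subunit Kcnmb2 was lower (145 ± 13.4 against 256 ± 28.4 CPM, -0.71, SE 0.08, adjusted p 3.59e-09). Both SK genes were lower: Kcnn3 had 23.8, 14.7, 29.5 and 10.1 CPM, against 75.6, 58.1, 68.9 and 64.9 CPM in inhibitory neurons (-1.68, SE 0.16, adjusted p 2.78e-11), and Kcnn2 differed by -0.40 (adjusted p 4.51e-05). Of the sodium-activated genes, Kcnt2 was higher at a low level (10.8 ± 6.26 against 5.32 ± 2.15 CPM, 1.04, SE 0.31, adjusted p 0.00764). Its difference was 0.40 (adjusted p 0.434) without the sub-clusters led by genes of other classes, 0.82 (adjusted p 0.12) without vGluT2-Cre replicate 2, and its counts were too low to be tested without vGluT2-Cre replicate 1. The call on Kcnt2 was also lost in DESeq2 (adjusted p 0.212) and in edgeR with the submitters' list of glutamatergic nuclei (adjusted p 0.202).

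The G-protein-gated rectifiers Kcnj3 and Kcnj6 were higher in glutamatergic neurons. Kcnj3 had 356, 310, 378 and 320 CPM, against 176, 117, 165 and 142 CPM in inhibitory neurons (1.29, SE 0.08, adjusted p 4.2e-17), and Kcnj6 had 64.9, 28.2, 64.4 and 41.9 CPM, against 17.4, 20.3, 12.6 and 14.4 CPM (1.72, SE 0.19, adjusted p 1.04e-09). Neither pair of ranges overlapped. Kcnj9, Kcnj10 and Kcnj12 did not pass the test.

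Tandem-pore genes moved both ways. Kcnk3 (9.68 ± 3.48 in glutamatergic against 35.9 ± 6.01 CPM in inhibitory neurons, -1.79, adjusted p 9.07e-10), Kcnk2 (20.2 ± 2.34 against 50.1 ± 8.20 CPM, -1.22, adjusted p 3.46e-08) and Kcnk10 (70.8 ± 11.3 against 110 ± 7.68 CPM, -0.59, adjusted p 9.06e-06) were lower. Kcnk12 (0.79, adjusted p 0.000252) and Kcnk9 (0.69, adjusted p 0.027) were higher. The call on Kcnk9 was lost without Ucn3-Cre replicate 1 (0.60, adjusted p 0.0726) or vGluT2-Cre replicate 1 (0.65, adjusted p 0.167). It was also lost in DESeq2 (adjusted p 0.263) and in edgeR without the library block (adjusted p 0.282). Of 16 tested genes from a list of 20 non-Kcn partners of these channels, 5 were higher and 8 lower, and of 10 tested from 15 genes of potassium transport, 2 were higher (Atp1b3 and Slc12a2) and 7 lower, among them the potassium chloride cotransporter Slc12a5 (326 ± 17.3 against 417 ± 53.1 CPM, -0.27, adjusted p 0.00259).

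**Figure D3:**
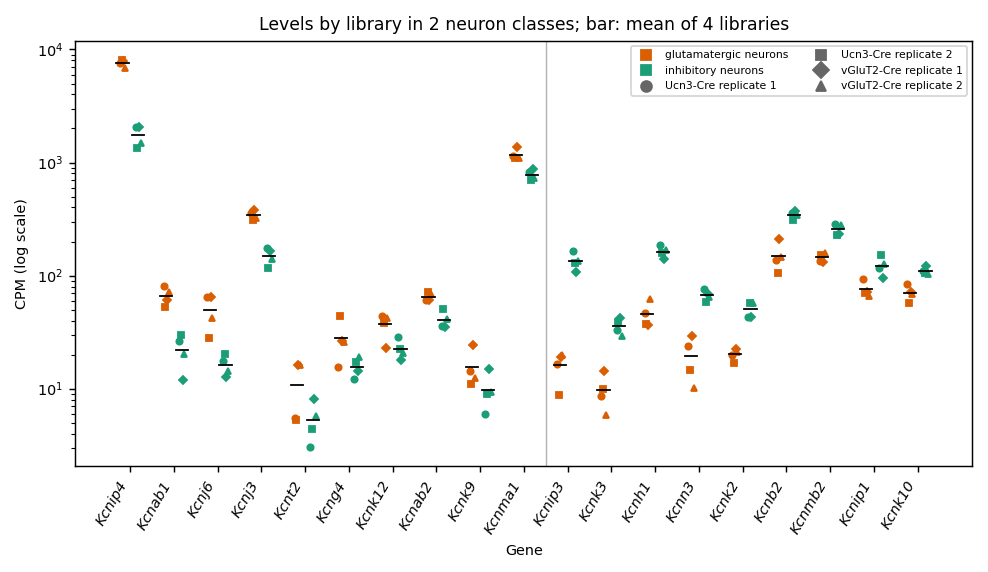
Level in CPM (log axis) of 19 named genes in glutamatergic and inhibitory neurons, with a point per library and a bar at the mean of 4 libraries; the 10 genes higher in glutamatergic neurons are left of the line and the 9 lower are right of it. Kcnip4 and Kcnip3 show the widest gaps, while the points of Kcnt2, Kcng4, Kcnk12 and Kcnk9 overlap.

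Within the glutamatergic class, 18 of 23 genes tested differed among 9 sub-clusters (F test over sub-clusters, adjusted p under 0.05), where 25.7% of all genes did. Among them, sub-cluster 3 alone took the glutamatergic name from its own markers, so the others are called by number and leading genes. Sub-cluster 7 (46 nuclei, led by Pax2 and Gldc) had 15.9 CPM of Slc17a6 and 421 CPM of Gad2, sub-cluster 1 (39 nuclei) had 87.4 and 161 CPM of these genes, and sub-cluster 4 (44 nuclei) was led by oligodendrocyte genes such as Aspa and Mog. Without these 3 sub-clusters, 14 of 20 genes tested differed, and the share over all genes in that fit is not given here.

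Kcnb2 had the smallest p among the glutamatergic sub-clusters (adjusted p 5.82e-14). Its levels were 195, 203, 231 and 231 CPM in sub-cluster 5 (Tmc1, Rorb and Sema3a), against 15.6, 11.7, 27.9 and 10.9 CPM in sub-cluster 3 (Gm43948) and 53.8, 20.9, 25.1 and 30.4 CPM in sub-cluster 8 (Cpne4). Every library of sub-cluster 5 thus lay above every library of the other two. Kcnip4 (adjusted p 1.2e-13) was at 10980, 10130, 9129 and 8206 CPM in sub-cluster 0 (Sox6 and Nts), and at 3417, 4113, 2889 and 4331 CPM in sub-cluster 2 (Hpse2, Lmx1a and Pax6), with 3408 ± 1204 CPM in sub-cluster 6 (Kynu and Igf1). Kcnip1 went the other way in sub-cluster 2, with 217 ± 112 CPM there and 16.1 ± 9.41 CPM in sub-cluster 5 (adjusted p 5.1e-11).

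Kcna1 was lowest in sub-cluster 7 (79.9 ± 35.3 CPM) and sub-cluster 2 (83.2 ± 79.7 CPM) and highest in sub-cluster 3 (318 ± 96.1 CPM; adjusted p 1.71e-08). Kcnma1 had 1438 ± 169 CPM in sub-cluster 3 and 833 ± 160 CPM in sub-cluster 5, the lowest outside sub-cluster 1, and 2114 ± 512 CPM in sub-cluster 7 (adjusted p 1.07e-09). Sub-cluster 7 also held the highest Kcnn3 (287, 142, 187 and 22.3 CPM, against 0 in all 4 libraries of sub-cluster 8; adjusted p 5.15e-10) and the highest Kcnj6 (178 ± 58.1 CPM, against 6.28 ± 6.45 CPM in sub-cluster 3; adjusted p 5.16e-07). Kcnmb2 was at 212 ± 36.0 CPM in sub-cluster 3 and 47.4 ± 44.8 CPM in sub-cluster 6 (adjusted p 7.13e-07). Kcnt1, Kcnj3, Kcna2, Kcnab2 and Kcnh5 did not pass the test.

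Within the inhibitory class, 24 of 29 genes tested differed among 7 sub-clusters, where 39.2% of all genes did. Sub-clusters 0 (Prlr and Gfra1), 2 (Foxp2) and 3 (Arhgap28 and Lmo3) shared one pattern, and sub-clusters 4 (Slc6a5, Pax2 and Gldc) and 5 (Shisa8, Nts and Gabrd) another. Sub-cluster 1 was led by oligodendrocyte genes and sub-cluster 6 had granule cell markers. Without both, 20 of 26 genes differed, again without a share over all genes to set beside it.

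Kcnh7, the erg channel, had 698, 570, 657 and 551 CPM in sub-cluster 2 and 575 ± 100 CPM in sub-cluster 3, against 57.3, 72.6, 139 and 60.1 CPM in sub-cluster 4 and 35.3 ± 19.6 CPM in sub-cluster 5 (adjusted p 5.13e-39). Kcnip1 had 166 ± 77.7, 219 ± 25.6 and 216 ± 52.2 CPM in sub-clusters 0, 2 and 3, while sub-clusters 4 and 5 held 3.88 and 2.92 counts in all (adjusted p 8.47e-35). Both genes were high in the same sub-clusters, while Kcna1 and Kcna2 were low there. Kcna6, another Kv1 gene, ran with Kcnh7, at 43.8 to 47.1 CPM in sub-clusters 0, 2 and 3 and at 13.1 and 29.8 CPM in sub-clusters 4 and 5 (adjusted p 0.000787).

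Kcna1 had 402, 420, 287 and 522 CPM in sub-cluster 4 and 253 ± 116 CPM in sub-cluster 5, against 22.5 to 42.0 CPM in sub-clusters 0, 2 and 3 (adjusted p 9.63e-38). Kcna2 had 180 ± 56.0 and 271 ± 34.9 CPM in sub-clusters 4 and 5, against 35.5 to 57.0 CPM in the other 3 (adjusted p 5.63e-28). The G-protein-gated Kcnj3 had 339 ± 60.3 and 187 ± 37.2 CPM in sub-clusters 4 and 5, against 29.1 to 70.6 CPM (adjusted p 1.16e-35), Kcnn3 115 ± 28.2 and 205 ± 55.1 CPM, against 5.78 to 20.6 CPM (adjusted p 1.89e-26), and Kcnip3 201 ± 37.8 and 349 ± 86.0 CPM, against 32.1 to 71.6 CPM (adjusted p 2.29e-30). Kcnma1 was highest in sub-cluster 4 (1458 ± 103 CPM, against 476 to 588 CPM in sub-clusters 0, 2 and 3; adjusted p 9.7e-28). Kcnip4 crossed the division: sub-clusters 3 and 4 held 2205 ± 883 and 2374 ± 797 CPM, and sub-clusters 0 and 5 held 509 ± 276 and 944 ± 489 CPM (adjusted p 2.46e-28).

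**Figure D4:**
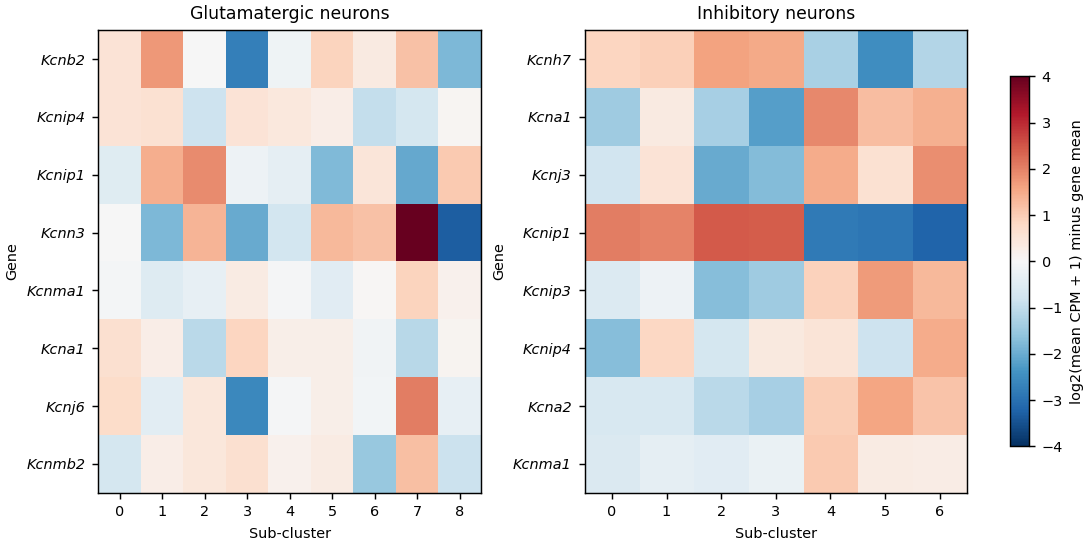
Level of the 8 genes with the smallest p in glutamatergic sub-clusters 0 to 8 and in inhibitory sub-clusters 0 to 6, as log2(mean CPM + 1) minus the gene's mean over the sub-clusters shown. In the inhibitory panel Kcnh7 and Kcnip1 are high in sub-clusters 0, 2 and 3, and Kcna1, Kcna2, Kcnj3 and Kcnip3 in sub-clusters 4 and 5.

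Oligodendrocyte precursors and oligodendrocytes, stages of 1 lineage, differed in most of these genes. Of 38 genes tested, 26 were higher in precursors and 6 lower, where 26.4% and 24.0% of all genes were, and the median log2 fold change was 3.14, against -0.03 over all genes. Kcnb2 had 198, 190, 238 and 231 CPM in precursors, while all oligodendrocytes together held 1.52 counts (log2 fold change 10.69, adjusted p 9.62e-18; ratio of pooled CPM 3393, 95% counting interval 801 to 45710). Kcnt2 had 157 ± 22.5 CPM in precursors, against 3.11 counts in all oligodendrocytes (ratio 1171, interval 408 to 5463). Kcnj6 had under 1 count in oligodendrocytes. Set to the floor of 3 counts over the 4 libraries, this gave a ratio of 349 (interval 190 to 47700). Kcnip3, Kcnip1, Kcnh8 and Kcnd2 were higher by 8.35, 8.13, 6.67 and 7.25 (adjusted p 2.2e-19, 1.55e-18, 3.08e-18 and 2.07e-15). Kcnd2 is the clearest by level: 3531, 3096, 3814 and 3277 CPM in precursors, against 8.57 to 34.97 CPM in oligodendrocytes.

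The 6 genes lower in precursors were Kcnk13 (-2.85, SE 0.15, adjusted p 9.47e-13), Kcnab1 (-2.37, SE 0.20, adjusted p 1.6e-09), Kcna6 (-2.29, SE 0.15, adjusted p 2.23e-11), Kcna1 (-2.11), Kcnu1 (-1.86) and Kcnj10 (-0.91). Of these, 3 encode Kv1 pores or their beta subunit. Of the partner list, 15 genes were tested, and 10 were higher in precursors, with Dpp10 at 633 ± 72.7 against 2.10 ± 2.20 CPM, and 4 lower, among them Cntn2, the axonal adhesion protein that gathers Kv1 channels beside nodes (20.7 ± 4.88 against 477 ± 44.2 CPM, -4.59, adjusted p 6.18e-16). Of the transport list, 4 of 11 tested were higher and 2 lower.

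Astrocytes differed from oligodendrocytes in 30 of 35 genes tested, with 21 higher and 9 lower, where 34.2% and 32.9% of all genes were. The largest were the SK genes and the silent subunit: Kcnn2 (731, 592, 645 and 737 CPM in astrocytes, against 8.71, 3.14, 1.97 and 5.49 CPM in oligodendrocytes; 7.17, SE 0.18, adjusted p 3.77e-12), Kcnn3 (7.06, SE 0.16, adjusted p 2.42e-12) and Kcns3 (6.87, SE 0.19, adjusted p 1.03e-11). All 4 Kir genes tested (Kcnj3, Kcnj9, Kcnj10 and Kcnj16) were higher in astrocytes, Kcnj10 by 0.29 only (adjusted p 0.00174). Kcnk13 (-6.23, SE 0.12, adjusted p 8.5e-13), Kcnab1 (-3.74, adjusted p 3.01e-10) and Kcna6 (-3.57, adjusted p 3.79e-12) were lowest relative to oligodendrocytes. From the partner list 7 of 14 were higher, with Lgi1 at 882 ± 88.0 against 3.93 ± 1.51 CPM, and 6 lower, and from the transport list 5 of 12 were higher, led by the water channel Aqp4 (1195 ± 217 against 34.8 ± 6.59 CPM), and 4 lower.

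Levels also varied between clusters of one glial class, given here without a test. Among astrocytes, cluster 9 (Gfap and Cd44) had 613, 691, 849 and 697 CPM of Kcnj3, against 38.9, 24.7, 50.0 and 32.0 CPM in cluster 4 (Gpc5 and Slc7a10). Kcnk2 was likewise higher in cluster 9 (204 to 260 CPM, against 24.5 to 39.4 CPM), and Kcnd2 (675 to 812 CPM, against 2912 to 3945 CPM) and Kcnj10 (76.3 to 112 CPM, against 287 to 336 CPM) were lower. Among oligodendrocytes, cluster 6 (Klk6 and Piezo2) had 39.7, 63.8, 38.0 and 70.7 CPM of Kcna1, against 342, 433, 361 and 476 CPM in cluster 0 (Ptgds), and Kcna6 had 102 to 113 CPM against 212 to 268 CPM. In all of these the ranges over libraries were apart. Kcnj3 in astrocyte cluster 9 also lay above its range in glutamatergic neurons (310 to 378 CPM).

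**Figure D5:**
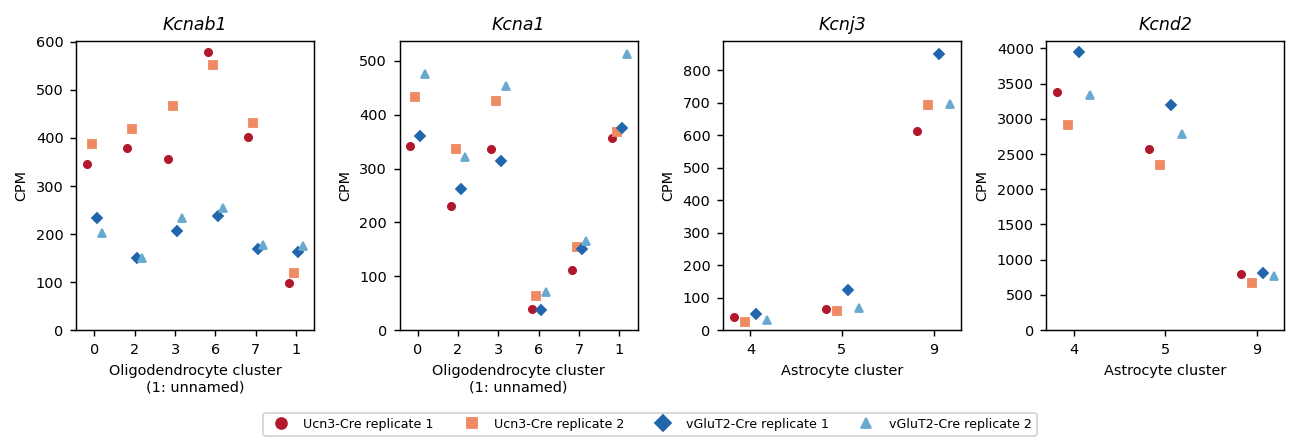
Level in CPM per library of Kcnab1 and Kcna1 in oligodendrocyte clusters 0, 2, 3, 6 and 7 and unnamed cluster 1, and of Kcnj3 and Kcnd2 in astrocyte clusters 4, 5 and 9. Kcna1 is lowest in cluster 6, Kcnj3 is high and Kcnd2 low in cluster 9, and Kcnab1 is higher in Ucn3-Cre libraries in every oligodendrocyte cluster shown but not in cluster 1.

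In the vessel wall, the clusters named mural and endothelial cells differed in 7 of 11 genes tested. Of these, 4 were higher and 3 lower in mural cells, where 15.6% and 24.3% of all genes were. Kcnj8 had 758, 884, 858 and 814 CPM in mural cells, against 143, 171, 33.2 and 141 CPM in endothelial cells (2.74, SE 0.25, adjusted p 1.05e-08). Abcc9, the sulphonylurea receptor that forms a channel with Kcnj8, was at 1860 ± 238 CPM in mural and 267 ± 75.9 CPM in endothelial cells (2.80, adjusted p 8.26e-10). Kcnt2 had 136, 156, 93.6 and 285 CPM in mural cells, against 43.7, 31.3, 19.5 and 22.5 CPM in endothelial cells (2.76, SE 0.39, adjusted p 5.11e-06), Kcnj12 differed by 3.22 (SE 0.61, adjusted p 0.000178) and Kcnrg was at 92.1 ± 48.0 against 22.1 ± 8.80 CPM (adjusted p 0.000606). No range of these 4 genes overlapped. Kcnip4 (0, 38.0, 150 and 65.5 CPM in mural cells, against 723, 385, 703 and 269 CPM in endothelial cells; -2.70, SE 0.34, adjusted p 1.12e-06), Kcnk2 (-1.47, adjusted p 0.0301) and Kcnd2 (-1.07, adjusted p 0.0186) were lower, Kcnd2 in 3 of 4 libraries and with overlapping ranges. Neither Kcnk2 nor Kcnd2 kept its call without Ucn3-Cre replicate 1 (adjusted p 0.0775 and 0.0853), vGluT2-Cre replicate 1 (0.0996 and 0.16) or vGluT2-Cre replicate 2 (0.105 and 0.123), and Kcnd2 was at -0.63 without vGluT2-Cre replicate 1 and at -0.46 (adjusted p 0.274) with values rounded up.

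Mural cells were few, with 22 to 63 nuclei per library, and 4 genes passed without Ucn3-Cre replicate 1 and 3 without vGluT2-Cre replicate 2. Endothelial cells also held 8 mural markers at 3922 to 5351 CPM (9822 to 10800 CPM in mural cells), and 5 general neuronal markers at 615 to 1383 CPM (408 to 784 CPM in mural cells), whose part in their Kcnj8, Kcnip4 and Kcnd2 was not tested. Against the mean of the other classes Kcnt2 was higher in endothelial cells by 2.40 with the clusters used here and by -0.28 (adjusted p 0.912) with finer clusters, and Kcnj8 by 5.83 and 2.03. With the finer clusters 356 nuclei were named endothelial and 190 mural. Clusters of 291 nuclei (led by the smooth muscle genes Acta2, Tagln and Myh11) and 82 nuclei (led by Rgs5) scored best for endothelial markers but stayed unnamed. The endothelial class used here may thus hold smooth muscle and pericytes, whose part in its levels was not tested. Of the partner list 3 of 8 genes tested were higher in mural cells and 3 lower, and of the transport list 2 of 9 and 2.

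No potassium channel gene was called between Ucn3-Cre and vGluT2-Cre libraries over all nuclei (0 of 44 in edgeR, where 0.0% of all genes were; 2 at an unadjusted p under 0.05, Kcnab1 and Kcnrg, where 3.47% of all genes were). DESeq2 called Kcnab1 alone of the 44 (adjusted p 2.75e-12), where 1.75% of all genes were. Sums over all nuclei cannot tell fewer cells of a class from less RNA per cell. The lines also differ in age, which cannot be told apart from the line. Of the rounded-up counts, 92.8% were left in each Ucn3-Cre library, against 95.4 and 95.7% in the vGluT2-Cre libraries. This too cannot be told apart from the line, and its part in the line comparisons was not tested.

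Kcnab1 was followed into the classes. In oligodendrocytes it had 420 and 445 CPM in Ucn3-Cre and 195 and 200 CPM in vGluT2-Cre libraries (log2 fold change 1.15, SE 0.13, p 0.000744, adjusted p 0.454, rank 5 of 11838 genes by p). The ratio of line means was 1.69, 2.66, 1.87, 2.29 and 2.41 in oligodendrocyte clusters 0, 2, 3, 6 and 7, so the direction was the same in each. In unnamed cluster 1 it was 0.642, with 97.9 and 119 CPM in Ucn3-Cre and 163 and 175 CPM in vGluT2-Cre libraries. Both Ucn3-Cre libraries also lay above both vGluT2-Cre libraries in inhibitory neurons (26.2 and 30.1, against at most 20.3 CPM), in molecular layer interneurons (58.3 and 64.6, against 28.4 and 22.2 CPM) and in microglia (15.6 and 21.1, against at most 7.44 CPM). They did not in glutamatergic neurons (80.8 and 52.7, against 60.9 and 70.9 CPM), precursors, astrocytes or the vascular classes. The gene entry of Kcnab1 used here spans chr3:65109384-65378223 (plus strand, GRCm38), and a RefSeq promoter window of Kcnab1 lies upstream of it, at chr3:64948962-64949211. The genes within 1 Mb of that entry that were tested in oligodendrocytes differed by -0.19 to 0.43, each with an adjusted p of 1.0. One of these, A330015K06Rik, overlaps it on the other strand (0.43, p 0.116).

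Within the 9 classes no potassium channel gene passed between the lines (0 called in each), where 0.126% of all genes were called lower in microglia, 0.0491% in precursors, 0.0273% in molecular layer interneurons and 0.0% in the rest. At an unadjusted p under 0.05, 10 of the 214 tests of a gene in a class passed, where 2.96% of all such tests did. The difference of the line effect between glutamatergic and inhibitory neurons passed in none of 40 genes (6 at an unadjusted p under 0.05, the smallest for Kcnip3 at -0.95 and Kcnab1 at -0.88, both adjusted p 0.541), where 0.0337% of all genes were called higher, 0.21% lower and 5.4% at that unadjusted p. Between female and male libraries 0 of 44 were called by edgeR or DESeq2 where 0.0% and 1.46% of all genes were, and 0 at an unadjusted p under 0.05 in edgeR, where 3.25% were. Both replicate 2 libraries carry the same tag in their column names, whose meaning is not given in the sources used here. Kcna1 was higher in both of them than in the others, at 116 and 176 CPM over all nuclei of the Ucn3-Cre and 138 and 194 CPM of the vGluT2-Cre libraries, and the part of the tag in this was not tested. Within that pair of libraries Kcnab1 was at 445 CPM in Ucn3-Cre and 200 CPM in vGluT2-Cre oligodendrocytes, a difference that was not tested. The partner and transport lists gave no call between lines or sexes either (0 of 17 and 0 of 12 tested).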

How the data were processed

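Single-nucleus RNA of 4 mouse libraries was analysed from the deposited tables of genes by nuclei. Cell Ranger 3.1.0, Seurat 3.2 and the mm10 build are named in the submitters' processing notes. The values deposited by the authors are treated as estimated counts: 97.2 to 98.8% of them lie less than 0.5 below a whole number, and the step that made them is not given in the sources used here. The share differed by line, at 97.2 and 97.6% in the Ucn3-Cre and 98.8 and 98.7% in the vGluT2-Cre libraries. Of the rounded-up counts, 92.8% were left in each Ucn3-Cre library, against 95.4 and 95.7% in the vGluT2-Cre libraries. Library totals were 9096357, 16219109, 16412271 and 19125488 over 15632 genes, and sums were rounded before count models; counting error sets the precision of low genes. Whether counting used strand is not given, and 11 of the 44 genes overlap a gene on the opposite strand.

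Nuclei scored as likely doublets were removed (947 of 21494, at 0.8% per 1000 nuclei of a library, since the automatic threshold marked 37). The rest were clustered with scanpy 1.11.5 (2000 variable genes, 30 components, 15 neighbours, Leiden resolution 1; 0.5 within neuron classes), with all Kcn genes and both companion lists left out. A cluster was named from marker genes at a score above 0.3 with at least 3 markers detected. The companion lists were 20 partners of potassium channels and 15 genes of potassium transport.

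Counts were summed per library and class (at least 20 nuclei) or sub-cluster (at least 5 nuclei in at least 3 libraries) and tested in R 4.3.3 with edgeR 4.0.16 (quasi-likelihood test, TMM, library as a block between classes, Benjamini-Hochberg over all genes tested). Levels are counts scaled to a total of 1000000 over all genes of the class sum (CPM). Tests were checked on simulated data, where 87 of 100 genes changed by 1 on the log2 scale and 100 of 100 changed by 2 were recovered between neuron classes, and 84 and 100 between lines. The simulation gave every gene the same fixed dispersion between libraries and changed only genes with enough counts in each sum. These shares therefore do not give the power of the real comparisons. Alternatives were DESeq2 1.42.0, its size factors, no filter, no library block, rounding up, doublets kept, other resolutions, the submitters' list of glutamatergic nuclei, a replicate block, line as a block for sex and leaving out each library; leaving out sub-clusters led by other classes was added after the data were seen.

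Named genes were the 10 with the largest change in each direction between neuron classes (same sign in 4 of 4 libraries, at least 10 CPM in the higher class), the 3 largest in each direction or class in other fits, the 8 with the smallest p among sub-clusters, and a list of well-known channel genes whatever their values. Members and lists were chosen with earlier results of these data known. Intervals and the floor of 3 counts cover counting error only. Results for 1 named gene are not reported here. No per-sample column was left unused.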

Additional observations from a re-analysis of the deposited data

How the results depend on the processing

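The count of genes called between glutamatergic and inhibitory neurons stayed within 1.5 times of 27 under every alternative run (20 to 29), as did those of each class against the others (110 to 116, against 112), precursors against oligodendrocytes (30 to 33), astrocytes against oligodendrocytes (24 to 33) and both sets of sub-clusters (13 to 25, against 18, and 20 to 29, against 24). The 20 between neuron classes came without the library block, where Kcna1, Kcnd2, Kcng4, Kcnh5, Kcnk9, Kcnn2 and Kcnt2 lost their calls. Mural against endothelial cells gave 3 to 6 genes when a library was left out, against 7, the lowest being 3 without vGluT2-Cre replicate 2 and 4 without Ucn3-Cre replicate 1, with fewer genes tested. Between lines, DESeq2 called 1 gene over all nuclei (Kcnab1), and within classes 1 was called with no filter (Kcnip4 in precursors). Calls within classes, Kcnip4 among them, also appeared without Ucn3-Cre replicate 2 or vGluT2-Cre replicate 2, in the latter both higher and lower. The line difference between neuron classes gave 1 (Kcnip4) without Ucn3-Cre replicate 1. Leaving out a library leaves 1 line with a single library, which is assumed to vary like the others. Of single genes, 851 values kept direction and side of the threshold, 23 lost and 7 gained a call, and 5 turned sign: Kcna6, near 0 throughout, was at 0.0091 with doublets kept, 0.0010 with values rounded up and between -0.0986 and 0.0513 when a library was left out, Kcnk1 was between -0.1696 and 0.0211 when a library was left out, and endothelial Kcnt2 was at -0.28 at resolution 2. The causes were not tested. With a replicate block the lines gave 0 calls, over all nuclei and within classes, with Kcnab1 at 0.98 over all nuclei and 1.15 in oligodendrocytes (both adjusted p 1.0); same-numbered libraries correlated at 0.169 in their deviations over 11229 genes, with only 2 pairs, of which the replicate 2 libraries also share a tag in their column names. Mural cells, with 22 to 63 nuclei per library, left 11 genes to test.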

Other observations

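Some Kcn rows outside the 44 genes had counts in part of the libraries only. Whether these zeros are measured or come from a gene filter applied to each library is not given in the sources used here, so no difference between libraries is read from them. Kcnj13, an inward rectifier, was listed at 65.2 and 141 counts in Ucn3-Cre replicates 1 and 2 and at 0 in both vGluT2-Cre libraries. Kcnj2 was listed at 118 counts and Kcne1l at 110 counts in vGluT2-Cre replicate 2 and at 0 in the other 3 libraries, and Kcnj11 at 57.5 counts in Ucn3-Cre replicate 2 alone. Kcnn1, an SK gene, was listed at 0 in Ucn3-Cre replicate 1 and at 83.7 counts in Ucn3-Cre replicate 2, with 61.1 and 93.9 counts in the vGluT2-Cre libraries.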
